A study of Mus musculus with 14 samples.

Results

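Transcripts that mouse embryos make in a burst at the 2-cell stage were followed here on blastocyst arrays, with attention to how far replicates of a group lay apart. The genes followed were *Zscan4c*, *Zscan4d*, *Zscan4f*, *Tcstv1*, *Tcstv3* and *Zfp352*, and their members are all probes annotated to these 6 symbols. The platform annotation held 4 such probes among 25697, with 1 each for *Zscan4c*, *Tcstv1*, *Tcstv3* and *Zfp352*. It gave no probe the symbol *Zscan4d* or *Zscan4f*, so these 2 genes were not analysed here. All 4 probes passed the filter on dim probes, detection on at least 2 arrays, which kept 10975 probes for the tests.

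The study hybridised total RNA to 14 one-colour Illumina bead arrays in 5 groups. The groups HTF/MultiBlast (3 arrays), ISM1/ISM2 (3 arrays) and KSOM(aa) (2 arrays) are named after embryo culture media. Oviduct and micromanipulation control (3 arrays each) carry these words as their cell type. The labels do not state strain, genotype, embryo age or how many embryos went into an array, and the study's title concerns sperm injection and embryo culture. The series text calls the replicates biological, but the descriptions of all 3 control arrays read replicate 1, so the spread within that group may be technical.

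The 2-cell stage is when the mouse embryonic genome is first strongly transcribed, together with retroelements that lend some genes their promoters. *Zscan4* genes encode nuclear proteins with a SCAN domain and zinc fingers, known in mouse embryonic stem cells for lengthening telomeres and for appearing in only a small, changing fraction of cells. *Tcstv1* and *Tcstv3* are 2-cell genes that also promote telomere lengthening in such cells, and *Zfp352* encodes a zinc finger protein of the 2-cell embryo. These transcripts are normally removed well before the blastocyst forms. In bulk RNA, a few cells with much transcript and many cells with little cannot be told apart.

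The genome places the members in gene clusters, which bears on what a probe can tell. RefSeq lists 9 *Zscan4* genes and pseudogenes on chromosome 7, 4 of them protein-coding, and the *Zscan4c* probe may also bind its near-identical relatives. *Tcstv1* and *Tcstv3* lie on chromosome 13 with 26 annotated genes between them, 8 of them protein-coding. *Zfp352* lies on chromosome 4. The 250 bases upstream of the annotated start are shown for *Zscan4c* and *Zfp352*, which were both detected on HTF/MultiBlast replicate 1, ISM1/ISM2 replicate 3 and oviduct replicate 3, from RefSeq on GRCm38.p6. The first is chr7:11005495-11005744, plus strand, and the second chr4:90218570-90218819, plus strand. Capitals mark 3 motifs, chosen after the sequences had been seen and searched on both strands without overlaps between them. In *Zscan4c* they mark TATAAA, the letters of the core promoter box near many start sites, and TGATTCAAT, which opens the known site of the 2-cell factor Dux in mouse. In *Zfp352* they mark TAATCC, letters bound by Otx-type homeodomain proteins.
Zscan4c: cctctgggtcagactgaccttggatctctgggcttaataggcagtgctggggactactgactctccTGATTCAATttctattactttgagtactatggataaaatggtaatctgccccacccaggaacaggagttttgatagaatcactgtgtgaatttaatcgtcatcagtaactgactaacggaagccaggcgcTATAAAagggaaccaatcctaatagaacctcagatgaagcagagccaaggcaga
Zfp352: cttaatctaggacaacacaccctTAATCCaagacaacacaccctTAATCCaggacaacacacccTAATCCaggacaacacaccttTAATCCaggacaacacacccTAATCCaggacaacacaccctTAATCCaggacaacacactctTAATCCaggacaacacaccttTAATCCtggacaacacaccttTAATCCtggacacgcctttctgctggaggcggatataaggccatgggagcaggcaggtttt

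The upstream sequences of *Zscan4c* and *Zfp352* shared none of these motifs. *Zscan4c* held TATAAA at bases -54 to -49 from the start, and TGATTCAAT at -184 to -176. TATAAA was found in 12.4% and TGATTCAAT in 0.11% of 32851 RefSeq promoter windows of the same length. *Zfp352* held TAATCC 9 times, in a repeat of near-identical units, where 6.25% of windows held it at all and no other window held 9. The upstream windows of *Zscan4c* and *Zscan4f* were identical at 226 of 227 aligned bases (99.6%), and those of *Zscan4c* and *Zscan4d* at 232 of 239 (97.1%). A match of letters is a description and not a binding site.

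Markers of the 3 blastocyst lineages were detected in all groups, with some exceptions. All 6 trophectoderm markers looked up, *Cdx2* and *Krt8* among them, were detected (detection p under 0.01) on all 14 arrays. Of 6 epiblast markers, 5 were detected on all 14 arrays and *Fgf4* on 0. Of 6 primitive endoderm markers, *Gata6*, *Sox17*, *Pdgfra* and *Dab2* were detected on all 14, *Sox7* on 11 and *Gata4* on 1. *Ovgp1*, the oviduct glycoprotein, and 5 other oviduct tissue markers were detected on 0 arrays, while *Wfdc2*, a gene of many epithelia, was detected on all 14. Median raw intensity ran from 96.6 to 152 and detected probes from 8533 to 10188, both lowest on oviduct replicate 1 and highest on oviduct replicate 2. The raw 75th percentile was 119 and 303 on these 2 arrays, so equal raw signals stand for different normalized levels there. Precision is limited by how few arrays each group had. Levels below are background-corrected, quantile-normalized log2 intensities, on which the median probe of an array lies at 4.69.

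*Tcstv3* differed widely between arrays of the same group in HTF/MultiBlast, ISM1/ISM2 and oviduct. In ISM1/ISM2 its level was 7.85, 7.40 and 12.67 on replicates 1, 2 and 3. In HTF/MultiBlast it was 10.28, 5.10 and 7.77 on replicates 1, 2 and 3, and in oviduct 9.41, 5.68 and 10.06. Replicate 3 of ISM1/ISM2 thus lay above the other arrays of all groups, while replicate 2 of HTF/MultiBlast was not detected. In KSOM(aa) it was 6.19 and 5.77, and in micromanipulation control 5.08, 5.39 and 5.04, detected on replicate 2 alone. These 5 arrays all lay below both other ISM1/ISM2 arrays. By raw signal, *Tcstv3* on ISM1/ISM2 replicate 3 exceeded 99% of the probes of that array.

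*Tcstv1*, of the same stretch of chromosome 13, was ordered in much the same way. Its level was 6.06, 6.41 and 11.78 on ISM1/ISM2 replicates 1 to 3, and 8.75, 4.87 and 6.26 on those of HTF/MultiBlast. In oviduct it was 8.25, 4.88 and 8.77, in KSOM(aa) 5.66 and 5.63, and in micromanipulation control 4.71, 4.84 and 4.92. The probe was detected on 9 of 14 arrays, and on none of the control arrays. ISM1/ISM2 replicate 3 stood 5.37 above the next array of its group, a 41.4-fold step. The same step was 28.1-fold for *Tcstv3*.

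*Zscan4c* was detected on 4 arrays only. These were HTF/MultiBlast replicate 1 at 7.62, ISM1/ISM2 replicate 3 at 7.61, and oviduct replicates 1 and 3 at 5.79 and 5.85. On HTF/MultiBlast replicates 2 and 3 it was 4.46 and 4.69, on ISM1/ISM2 replicates 1 and 2 it was 4.57 and 4.32, and on oviduct replicate 2 it was 4.55. The 5 arrays of KSOM(aa) and control lay between 4.48 and 4.55. The 10 arrays without detection lay near the array median and have no order among them.

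*Zfp352* was detected on 3 arrays, which were the same as the highest 3 for *Tcstv1* and *Tcstv3*. It reached 6.82 on ISM1/ISM2 replicate 3, 5.92 on oviduct replicate 3 and 5.65 on HTF/MultiBlast replicate 1. HTF/MultiBlast replicate 3 was at 4.99 and replicate 2 at 4.27, and ISM1/ISM2 replicates 1 and 2 were at 4.35 and 4.53. Oviduct replicates 1 and 2, at 4.50 and 4.57, lay within the range of KSOM(aa) and control, 4.30 to 4.61. Oviduct replicate 1, which was high for the other members, was thus not high for this gene.

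**Figure D1:**
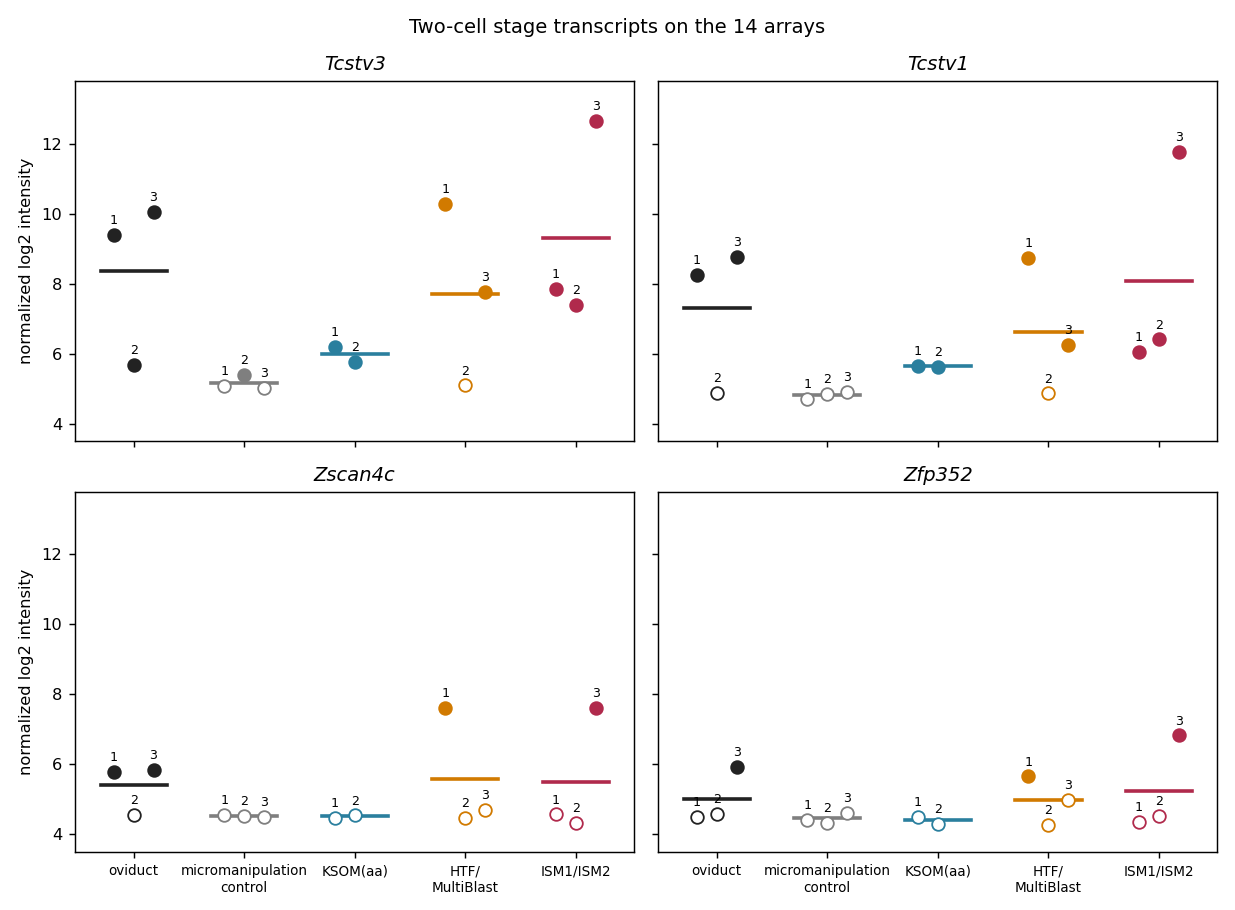
Normalized log2 intensity (vertical axis) of the 4 measured genes on the 14 arrays by group. Points are arrays with their replicate number, filled where the probe was detected and open where it was not, and bars are group means. HTF/MultiBlast replicate 1, ISM1/ISM2 replicate 3 and oviduct replicate 3 were the highest arrays of their groups for all 4 genes, while KSOM(aa) and micromanipulation control stayed low.

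The 4 probes picked the same arrays. HTF/MultiBlast replicate 1, ISM1/ISM2 replicate 3 and oviduct replicate 3 were each the highest of their group for all 4 probes, an arrangement found in 5.89% of the tested probes. These arrays were named from the members' own values. *Zfp352* passed the filter on dim probes only through these 3, and *Zscan4c* only through them and oviduct replicate 1. The share is thus a description and no test. For *Tcstv1* and *Tcstv3*, oviduct replicate 1 came next in rank over the 14 arrays, and HTF/MultiBlast replicate 3 was among the 6 highest. As a description over the 14 arrays, which the probes share, deviations from the group means correlated at r = 0.98 between *Tcstv1* and *Tcstv3*. The lowest such r, between *Zscan4c* and *Zfp352*, was 0.84.

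Compared with other probes, the spread between replicates was large. The within-group SD pooled over the 5 groups was 2.16 log2 for *Tcstv3*, rank 1 among the 10975 tested probes, and 2.03 for *Tcstv1*, rank 3. It was 1.25 for *Zscan4c*, rank 21, and 0.82 for *Zfp352*, rank 193. These 2 SDs depended on processing, at 0.50 and 0.28 with no background correction and 1.97 and 1.61 with the authors' values, and that of *Zfp352* was 0.54 without ISM1/ISM2 replicate 3. The median probe had 0.32, and the 95th and 99th percentiles were 0.68 and 0.91. The members were chosen with earlier results of these data known, so these ranks describe them and are no test. Of the ranks down to 9, the others were *AF067061* at 2, *BC147527* at 4, *Gm20767* at 6, *B020031M17Rik* at 7, *Gm13043* at 8, *Pramel20* at 9 and a probe with no symbol at 5 (named after their values were seen). Of the 20 highest ranks, 2 were members and 7 were genes most like the members or of the 2-cell list, both described below. The other 11 were neither, with *Gm428*, *Lpl* and *Trp53inp1* among them.

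The spread differed by group. The SD of *Tcstv3* was 2.59 for HTF/MultiBlast, 2.92 for ISM1/ISM2 and 2.36 for oviduct, against 0.30 in KSOM(aa) (n = 2) and 0.19 in micromanipulation control (n = 3 in the other groups). The corresponding *Tcstv1* values were 1.97, 3.21, 2.11, 0.02 and 0.11. Over all tested probes the median SD was 0.22 for HTF/MultiBlast, 0.24 for ISM1/ISM2, 0.35 for oviduct, 0.33 in KSOM(aa) and 0.18 in control. A within-group range as wide as that of *Tcstv3* was found for 1 tested probe in HTF/MultiBlast (itself), 4 in oviduct and 9 in ISM1/ISM2, itself included. In control 47.6% of the tested probes had a range at least as wide. Whether groups differ in spread was not tested.

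**Figure D2:**
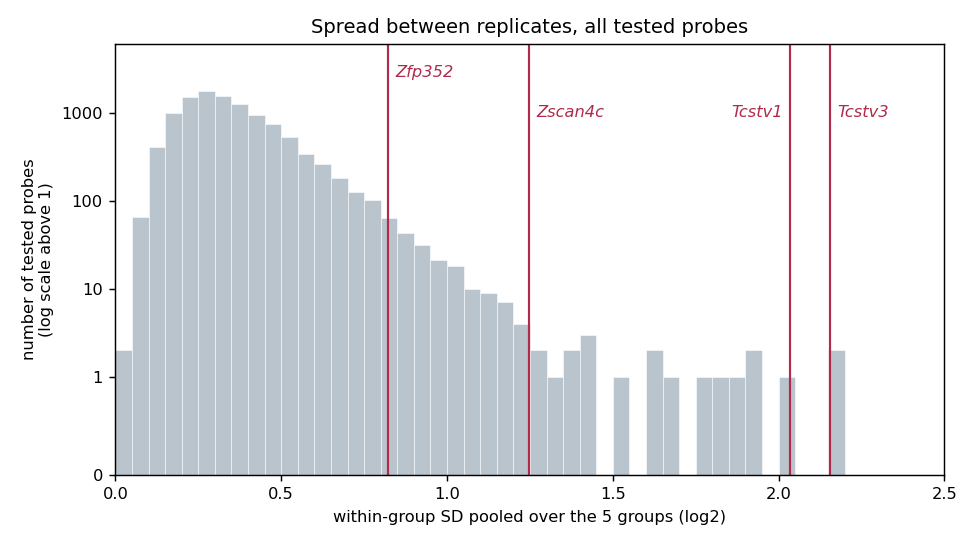
Distribution of the within-group SD, pooled over the 5 groups (log2, horizontal axis), over the 10975 tested probes (number of probes, log scale above 1, vertical axis). Lines mark the members, with *Tcstv3* at 2.16 and *Tcstv1* at 2.03, far right of the median of 0.32, and *Zfp352* at 0.82.

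No member differed from oviduct beyond this spread. In the tests of limma, adjusted over all tested probes, 0 of 4 members passed between HTF/MultiBlast and oviduct, where 5.73% of all probes passed. The count was 0 of 4 for ISM1/ISM2 (24.7% of all probes passed), for KSOM(aa) (0.21%) and for micromanipulation control (0.374%). At an unadjusted p under 0.05 the counts were 0, 0, 0 and 1, against 22%, 37.1%, 11.8% and 16.5% of all tested probes. In limma's F test across the 5 groups, which 17.3% of all probes passed, 0 of 4 passed and 0 had an unadjusted p under 0.05 (33.1% of all tested probes had). The smallest adjusted p in that test was 0.202, for *Tcstv3*.

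The intervals of the differences were wide. *Tcstv3* was 0.92 ± 1.44 log2 (SE, n = 3 in each group) higher in ISM1/ISM2 than in oviduct, with a 95% interval from -2.18 to 4.03 (limma adjusted p = 0.680). The difference was -0.67 in HTF/MultiBlast (interval -3.77 to 2.44, adjusted p = 0.828) and -2.40 in KSOM(aa) (interval -5.87 to 1.07, adjusted p = 0.595). In micromanipulation control it was -3.21 ± 1.44 (interval -6.31 to -0.11), with the control arrays all below the oviduct ones. This difference had an unadjusted p of 0.0433 in limma and did not pass after adjustment (0.290). *Tcstv1* was not detected in control and was at least 3.82-fold higher in oviduct, with an adjusted p of 0.386. Oviduct replicate 2 was itself not detected, and the bound was 2.30-fold without oviduct replicate 3 and 8.85-fold without replicate 2. It sets the oviduct mean against the lowest detected signal of each control array.

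The dimmer members gave differences closer to 0. *Zscan4c* differed from oviduct by 0.19 in HTF/MultiBlast and 0.11 in ISM1/ISM2 (95% intervals -1.62 to 2.00 and -1.71 to 1.92). It was not detected in KSOM(aa) or control, and its oviduct mean stood at least 1.05-fold above KSOM(aa) and at least 1.02-fold above control (limma adjusted p = 0.761 and 0.641). Without oviduct replicate 1 or 3 both bounds were under 1. *Zfp352* differed by -0.03 in HTF/MultiBlast and 0.24 in ISM1/ISM2 (95% intervals -1.24 to 1.19 and -0.98 to 1.46). In KSOM(aa) and control *Zfp352* was not detected, and its bound against oviduct was under 1, so no fold is given. Most of these 4 intervals reach past a 2-fold difference on both sides, and that of *Zfp352* in ISM1/ISM2 reaches -0.98.

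**Figure D3:**
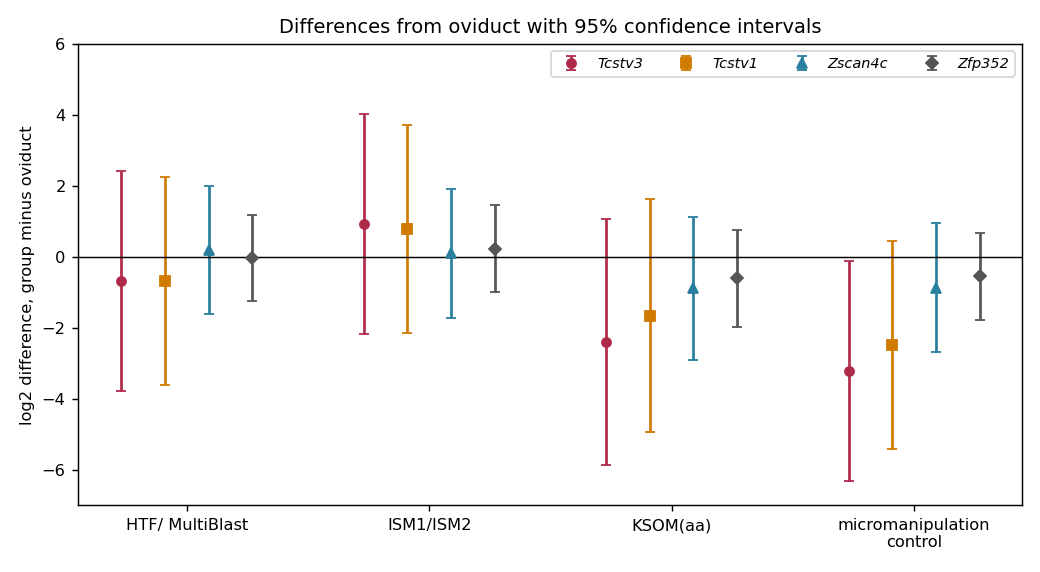
Log2 difference from oviduct (vertical axis) of the 4 measured genes in the other 4 groups, with 95% confidence intervals from limma. All intervals include 0 except that of *Tcstv3* in micromanipulation control, -6.31 to -0.11, whose adjusted p was 0.290.

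Which arrays enter decided the sign of several of these differences. Without ISM1/ISM2 replicate 3, the ISM1/ISM2 differences of *Tcstv3* and *Tcstv1* turned to -0.755 and -1.065. *Zscan4c* and *Zfp352* were then detected on no ISM1/ISM2 array. Without HTF/MultiBlast replicate 2, the *Tcstv3* difference of HTF/MultiBlast turned from -0.67 to 0.64. Without oviduct replicate 2, the ISM1/ISM2 differences of *Tcstv3*, *Tcstv1* and *Zscan4c* turned to -0.427, -0.426 and -0.319, and the control difference of *Tcstv3* went from -3.21 to -4.565. None of the 14 fits that leave out 1 array made a member pass against oviduct.

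Between the other groups, the widest difference was that of *Tcstv3* between control and ISM1/ISM2. The control level minus the ISM1/ISM2 level was -4.14 ± 1.44 (SE, n = 3 in each group), and the arrays did not overlap. It did not pass in limma's test (adjusted p = 0.0683; unadjusted p = 0.0127), where 15.8% of all probes passed. It passed with other groups left out of the fit (0.0316), with array weights (0.0297) and without oviduct replicate 2 (0.0484), and the other 13 fits without 1 array gave 0.0525 to 0.255. With the replicate number as a block it passed as well (0.0337). Without ISM1/ISM2 replicate 3 the difference was -2.46 in place of -4.14 (adjusted p = 0.255). *Tcstv1* was at least 6.59-fold higher in ISM1/ISM2 than in control (adjusted p = 0.128), and at least 1.83-fold higher without ISM1/ISM2 replicate 3. No member passed in any of the 6 comparisons among non-oviduct groups. All fits over the 5 groups, also those against oviduct, took 1 spread per probe for all groups, though member SDs differed widely between groups. For control against KSOM(aa) the SE was thus 1.52 for *Tcstv1* and 1.61 for *Tcstv3*, above their SDs in either group. Those tests cannot tell whether the levels of these genes differed there. Of the tested probes, 6.31% passed between HTF/MultiBlast and ISM1/ISM2, 0.191% between HTF/MultiBlast and KSOM(aa), 10.8% between ISM1/ISM2 and KSOM(aa), 2% between control and HTF/MultiBlast, and 0% between control and KSOM(aa). Unadjusted, 515 probes had a limma p under 0.05 in the last of these.

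Few members separated 2 groups array by array. Against oviduct, 0 of 4 did so for HTF/MultiBlast (26.2% of the tested probes did) and 0 for ISM1/ISM2 (37.9%). For control 1 did, *Tcstv3* (23.9%). For KSOM(aa) 1 did, *Zscan4c* (18.3%), but only by levels of undetected arrays, 4.55 on oviduct replicate 2 and 4.54 on KSOM(aa) replicate 2, which have no order. *Tcstv1* and *Tcstv3*, 2 of 4, separated ISM1/ISM2 from KSOM(aa) (37.3%), control from ISM1/ISM2 (43%) and control from KSOM(aa) (20.5%). The count was 0 for HTF/MultiBlast against ISM1/ISM2 (32%), KSOM(aa) (24.6%) and control (29.4%).

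Of the 9 genes most like the members, 5 lie beside *Tcstv1* and *Tcstv3* on chromosome 13. Likeness was Pearson's r with the mean of the 4 members, over 8021 other symbols and 14 arrays. The members were centred but not scaled before averaging, so *Tcstv3* and *Tcstv1*, with the widest spread, weighed most in this mean. By deviations from group means, the 8 highest were *Gm13043* (r = 0.98), *Pramel20* (0.98), *B020031M17Rik* (0.98), *AF067061* (0.98), *Gm20767* (0.96), *BC147527* (0.95), *AF067063* (0.95) and *Gm5662* (0.94). Without ISM1/ISM2 replicate 3 and HTF/MultiBlast replicate 1, the arrays farthest from the median, these r ran from 0.91 to 0.97 over 12 arrays. The group means behind these deviations still included the 2 arrays, so these r are not free of them and cannot show likeness without them. By plain levels the list was the same but for *Pramel17* (0.88) in place of *AF067063*. Without the same 2 arrays the r of plain levels, which use no group means, ran from 0.92 to 0.97. *Gm13043*, *Pramel20* and *Pramel17* lie on chromosome 4, the first 2 with 2 annotated genes between them, and *Pramel17* and *Pramel20* belong to the PRAME-like family. Being chosen for likeness, these genes give no further support to the pattern.

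*AF067061*, an uncharacterised gene between *Tcstv1* and *Tcstv3*, was detected on 5 arrays. Its level was 11.40 on ISM1/ISM2 replicate 3 and 4.78 and 4.85 on replicates 1 and 2. It was 7.95, 4.57 and 5.79 on HTF/MultiBlast replicates 1 to 3 and 7.74, 4.61 and 7.91 on those of oviduct. The 5 arrays of KSOM(aa) and control, at 4.41 to 4.76, did not detect it. *Gm13043* was instead about as high on HTF/MultiBlast replicate 1 as on ISM1/ISM2 replicate 3, at 9.70 and 9.91. Its oviduct levels were 8.32, 5.48 and 8.78.

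The stretch of chromosome 13 from *AF067063* to *Tcstv3* was measured by 7 probes, and all 7 had the same 3 arrays highest in their groups (5.89% of all tested probes did). They are the probes of *Tcstv1*, *Tcstv3* and 5 genes already picked for likeness to the members, so the count describes them and adds no support. RefSeq annotates 31 genes there, 11 of them protein-coding, and 7 had a probe. On ISM1/ISM2 replicate 3 their levels ran from 9.73 for *AF067063* to 12.67 for *Tcstv3*. On HTF/MultiBlast replicate 1 they ran from 6.20 to 10.28, and on oviduct replicate 3 from 6.80 to 10.06. The end at *AF067063* was set after its values were seen. Genes of such a cluster can share sequence, so the probes may not be independent of each other, which was not checked since probe sequences were not used here.

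**Figure D4:**
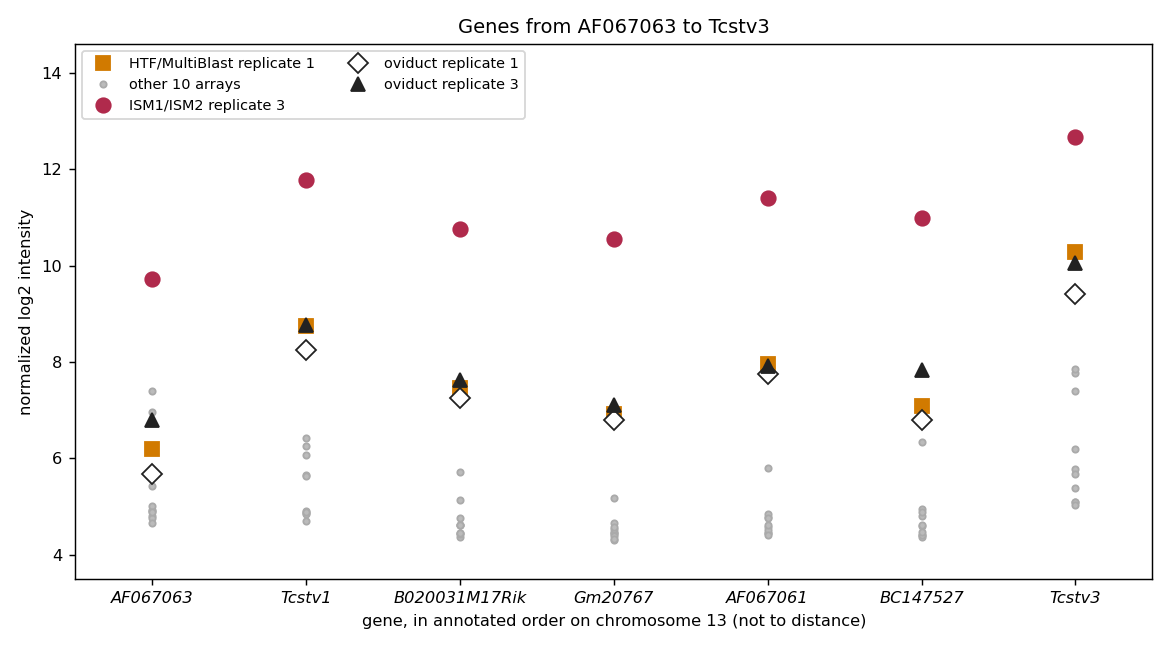
Normalized log2 intensity (vertical axis) of the 7 probes for genes from *AF067063* to *Tcstv3*, in annotated order on chromosome 13 (horizontal axis, not to distance). ISM1/ISM2 replicate 3 lies highest for each gene, from 9.73 to 12.67. HTF/MultiBlast replicate 1 and oviduct replicates 1 and 3 have markers of their own, and small grey points are the other 10 arrays.

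A wider list of 2-cell genes, drawn up with earlier results of these data known, gave 18 tested genes of 28 with a probe. The 18 include 5 of the like genes above. *Pramel17* was listed under an older symbol that no probe carried, and so is not among them. Of the 18, 10 had the same 3 arrays highest in their groups, against 5.89% of all tested probes, and the median pooled SD was 0.76, against 0.32. All 5 like genes, picked for this pattern, are among the 10. *Tdpoz4*, also among them, passed the filter on dim probes only through 2 of the 3 arrays. *Gm20767* and *Spz1*, among the 10 as well, would not have passed it without these arrays. The count and the SD thus describe the list and give no further support. The 10 other genes with a probe were too dim to test. *Tdpoz4*, of a family with TD and POZ domains, was detected on 2 arrays, ISM1/ISM2 replicate 3 at 7.22 and oviduct replicate 3 at 5.36. *Gm5662* was at 9.97 on ISM1/ISM2 replicate 3 and 6.12 and 5.75 on the other arrays of that group. Not all followed. *Tmem92* was 7.63 on HTF/MultiBlast replicate 1 and 4.50 on ISM1/ISM2 replicate 3, and *Usp17la*, a deubiquitinase gene, was highest on oviduct replicate 1, at 6.34. *Eif1a*, a translation initiation factor, had a pooled SD of 0.12 and lay between 11.62 and 12.18.

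**Figure D5:**
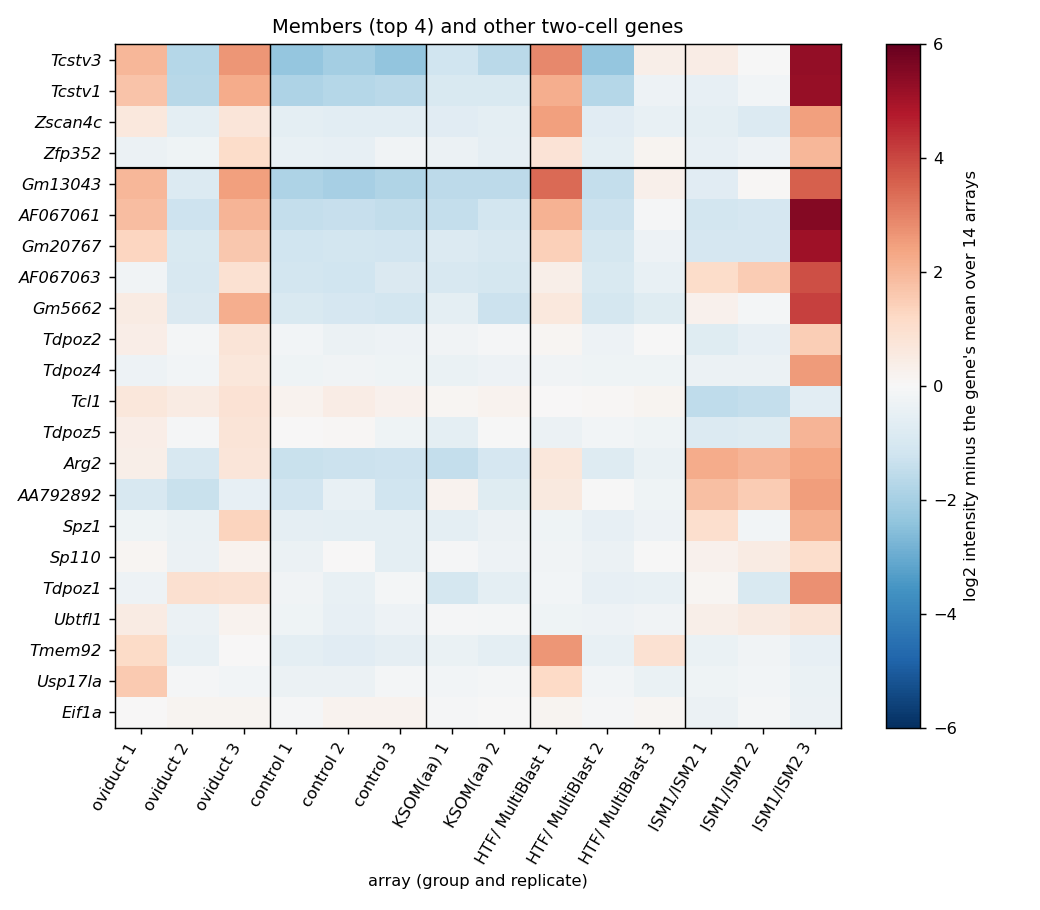
Log2 intensity minus each gene's mean over the 14 arrays (colour) for the 4 members (above the line) and the 18 other tested 2-cell genes, which are ordered by their r with the members. Columns are arrays by group. The reds gather mostly in ISM1/ISM2 replicate 3, HTF/MultiBlast replicate 1 and oviduct replicates 1 and 3, while *Tmem92*, *Usp17la*, *Eif1a* and *Tcl1* are among those that differ. *AA792892* and *Arg2* were above their means on all ISM1/ISM2 arrays.

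Against oviduct, 4 of 18 genes of that list passed in ISM1/ISM2, near the 24.7% of all tested probes. There 3 of 18 genes were higher (13.3% of all probes were) and 1 was lower (11.5%); the same shares for HTF/MultiBlast were 3.18% and 2.55%. The list's median difference in ISM1/ISM2 was 0.29 log2, against 0.00 over all tested probes. *AA792892* rose by 2.89 ± 0.34 (limma adjusted p = 6.22e-05, SE, n = 3 in each group here and below). *Arg2*, a mitochondrial arginase, rose by 2.18 ± 0.41 (limma adjusted p = 0.00191). Unlike the members, both were high on all 3 ISM1/ISM2 arrays, at 8.50, 8.26 and 9.22 for *AA792892* and 8.09, 7.90 and 8.25 for *Arg2*. *AF067063* rose by 2.23 ± 0.61 (limma adjusted p = 0.0170), a call that ended without ISM1/ISM2 replicate 3 (0.0514), without oviduct replicate 2 (0.0707), with all probes kept (0.0660) or when other groups were left out of the fit (0.0691). *Tcl1*, an activator of the AKT kinases, fell by 1.86 ± 0.22 (limma adjusted p = 6.38e-05). In HTF/MultiBlast, KSOM(aa) and control 0 of 18 genes passed, where 5.73%, 0.21% and 0.374% of all tested probes did. The list's medians there were -0.40, -0.69 and -0.74, with all-probe medians of 0.01.

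Regulators of the 2-cell state known from mouse embryonic stem cells were also looked up. Of 34 listed, 24 were tested, with a median pooled SD of 0.25, and 1 had the same 3 arrays highest, near the share of all tested probes (5.89%). In ISM1/ISM2 1 was higher and 3 were lower than in oviduct (13.3% and 11.5% of all tested probes), and in HTF/MultiBlast 1 was higher (3.18%). *Dppa4*, which with *Dppa2* activates 2-cell genes in such cells, rose by 1.01 ± 0.19 in ISM1/ISM2 and 0.86 ± 0.19 in HTF/MultiBlast (limma adjusted p = 0.00179 and 0.0192). The latter call ended without HTF/MultiBlast replicate 1 (0.104) or 3 (0.0606), without oviduct replicate 3 (0.0602), and when other groups were left out of the fit (0.0885). *Gata2*, also a trophoblast factor, fell by 1.03 ± 0.20 in ISM1/ISM2, and *Setdb1*, which silences retroelements, by 0.94 ± 0.26 (limma adjusted p = 0.00239 and 0.0175). *Uhrf1*, a partner of the maintenance DNA methyltransferase, fell by 0.71 ± 0.22 (limma adjusted p = 0.0320). The *Setdb1* call ended without ISM1/ISM2 replicate 2 (0.0584) or oviduct replicate 2 (0.0511). The *Uhrf1* call ended without ISM1/ISM2 replicate 2 (0.141), oviduct replicate 1 (0.0840) or 3 (0.0592), with other groups left out (0.113) and under 75th-percentile scaling (0.245). The list's median was -0.16 in ISM1/ISM2 and -0.13 in HTF/MultiBlast. No gene of it passed in KSOM(aa) or control, where 0.21% and 0.374% of all tested probes did.

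Of the telomere genes, 15 of 26 were tested, and 3 were higher and 0 lower in ISM1/ISM2 than in oviduct (13.3% and 11.5% of all tested probes), with a median of 0.25. *Nop10*, a subunit of telomerase and other RNA-protein complexes, rose by 1.47 ± 0.39 (limma adjusted p = 0.0136). *Stn1*, of a complex that caps chromosome ends, rose by 1.00 ± 0.30 (limma adjusted p = 0.0249), a call that ended without ISM1/ISM2 replicate 2 (0.0971), oviduct replicate 1 (0.0693) or 3 (0.0782), and under 5 other settings (0.0538 to 0.194). The third, *Tpp1*, is the gene of a lysosomal peptidase that shares its name with a telomere protein encoded by *Acd*, and rose by 1.52 ± 0.35 (limma adjusted p = 0.00665). It was also the 1 gene higher in HTF/MultiBlast (3.18% of all tested probes were), by 1.38 ± 0.35 (limma adjusted p = 0.0366). That call ended without any 1 of the HTF/MultiBlast arrays (0.0788 to 0.137), any 1 of the control arrays (0.0549 to 0.0552), oviduct replicate 1 (0.0871) or 3 (0.0960), or ISM1/ISM2 replicate 2 (0.0523). In KSOM(aa) and control 0 genes passed, where 0.21% and 0.374% of all tested probes did. The medians there were 0.10 and 0.41, and the median in HTF/MultiBlast was 0.00. The 3 high arrays were together the highest for 2 of the 15 genes (5.89% of all tested probes).

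Markers of the cells an array could hold were set beside the pattern. The summed level of 6 trophectoderm markers (log2) was lowest in each of the 3 groups on the array where the members were highest. It was 14.79 on HTF/MultiBlast replicate 1 (15.01 and 15.09 on the others), 14.71 on ISM1/ISM2 replicate 3 (14.76 and 15.12) and 15.16 on oviduct replicate 3 (15.27 and 15.31). This sum is led by *Krt8*, *Krt18* and *Cdx2*, at means of 13.9, 13.1 and 12.8. Of the same list, *Gata3* was highest of all 14 arrays on HTF/MultiBlast replicate 1 and *Eomes* on oviduct replicate 3. *Cdx2*, *Elf5*, *Krt8* and *Krt18* were highest on other arrays. How many tested probes were lowest on these arrays was not counted. The epiblast markers summed to 12.50, 12.35 and 12.17 on HTF/MultiBlast replicates 1 to 3, to 12.33, 12.26 and 12.39 in ISM1/ISM2 and to 11.79, 11.86 and 11.80 in oviduct. The primitive endoderm markers summed to 14.14, 14.11 and 13.84 in HTF/MultiBlast, 13.84, 13.69 and 13.83 in ISM1/ISM2 and 13.52, 13.85 and 13.66 in oviduct. Neither list was highest, or lowest, of the group on all 3 arrays with high members. The 13 oocyte and egg markers with a probe, of which 6 were detected on 0 arrays, *Zp2*, *Zp3*, *Bmp15* and *Mos* among them, summed to 12.31, 12.01 and 11.79 on HTF/MultiBlast replicates 1 to 3. They summed to 12.12, 12.33 and 12.28 in ISM1/ISM2 and 11.40, 11.09 and 11.79 in oviduct, led by *Ooep* at a mean of 11.55. The blood and immune list of 5 genes ranged from 7.44 to 9.02 in oviduct and from 6.74 to 7.11 elsewhere. Its *Lyz2* was detected on oviduct replicate 3 alone, at 8.37, while *Ptprc* and *Hba-a1* were detected on 0 arrays. *S100a9*, of the same list, was detected on 5 arrays and was highest on oviduct replicate 3, at 7.01. All 5 cumulus and granulosa markers were detected on 0 arrays. Raw array medians were 143, 118 and 112 on the 3 arrays with high members and 96.6 to 152 over all 14. The part of marker levels and array intensity in the spread of the 2-cell transcripts was not tested.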

How the data were processed

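The authors' deposited intensity values are BeadStudio 3.2 bead summaries per probe, per the submitters' processing notes, and differ in median between arrays. The deposited detection p-values, per the file headers, belong to each intensity. The authors' deposited log2 values have equal quantiles on all arrays, with a median of 2.89; lumi and RMA are named in the submitters' processing notes, their offset is not given in the sources used here, and they served as an alternative. Here intensities were background-corrected from the detection p-values and quantile-normalized with neqc (limma 3.58.1, R 4.3.3, offset 16). Probes with a detection p under 0.01 on at least 2 arrays were fitted with 1 model over the 5 groups (lmFit, eBayes, two-sided, 9 residual and 4.55 prior degrees of freedom), and the Benjamini-Hochberg adjustment ran over all tested probes, with a threshold of 0.05. Tests were checked on simulated data in which each probe had the same SD in all groups. The members' SDs differed between groups, so that check does not cover them. A gene of a list is represented by its tested probe with the highest mean. Of 25697 probes, 23978 had 1 gene symbol and 1719 none, and 23962 gene IDs were in the RefSeq table of GRCm38.p6. The members and lists were chosen with earlier results of these data known. List genes are named where they passed against oviduct, and like genes as the 8 with the highest r. Nothing in the labels says that replicate numbers pair arrays, so the main fit had no block. Deviations from group means correlated above 0.1 in 8 of 26 same-numbered pairs of arrays and in 12 of 52 other pairs. The median r was 0.04 and -0.01. With so few arrays per group this cannot exclude pairing. All p-values reflect only how far arrays of a group differ, which may be technical.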

Additional observations from a re-analysis of the deposited data

How the results depend on the processing

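No alternative made a member pass against oviduct or in the F test. The pooled SD depended on how dim signal was treated. For *Zscan4c* it was 1.97 with the authors' values, 0.80 with an offset of 50 and 0.50 with no background correction, and for *Zfp352* 1.61, 0.46 and 0.28. Leaving out 1 array gave 0.956 to 1.322 for *Zscan4c*, 1.447 to 2.158 for *Tcstv1*, 1.763 to 2.286 for *Tcstv3* and 0.537 to 0.873 for *Zfp352*, each lowest without ISM1/ISM2 replicate 3. With the 3 high arrays left out together, an alternative chosen after seeing the data, the SDs were 0.372, 1.059, 1.34 and 0.236. The count of members passing between control and ISM1/ISM2 went from 0 to 1 (*Tcstv3*) with only the 2 groups compared, with array weights and with a replicate block, and was 0 to 1 with 1 array left out.

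Differences from oviduct changed sign under some settings, never passing. In HTF/MultiBlast, *Zscan4c* was -0.074 with the authors' values, -0.037 after scaling to the 75th percentile and -0.591 without the 3 high arrays. With array weights *Tcstv1*, *Tcstv3* and *Zfp352* were 0.509, 0.79 and 0.176, and *Zfp352* was 0.095 without the 3 high arrays. In ISM1/ISM2, *Zscan4c* was -0.407 with the authors' values, and *Zfp352* was -0.065 after scaling to the 75th percentile. Without the 3 high arrays *Zscan4c*, *Tcstv1* and *Zfp352* were -0.721, -0.331 and -0.097. Where neither group detected a probe, as for *Zfp352* in both comparisons without the 3 high arrays, the sign of its difference carries no order. The same holds for levels of *Zscan4c* and *Zfp352* in ISM1/ISM2 without replicate 3, where no array of that group detected them. Leaving out 1 array, HTF/MultiBlast gave -0.82 to 0.76 for *Zscan4c*, -1.887 to 0.202 for *Tcstv1*, -2.018 to 0.642 for *Tcstv3* and -0.367 to 0.435 for *Zfp352*. ISM1/ISM2 gave -0.949 to 0.693, -1.065 to 1.796, -0.755 to 1.879 and -0.558 to 0.698 in the same order. In KSOM(aa) and control all signs held, with *Tcstv3* from -3.752 to -1.562 and from -4.565 to -2.374.

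List counts that moved were small. The telomere count in HTF/MultiBlast went from 1 to 0 with the authors' values, all probes kept, a replicate block or the 3 high arrays left out, and in ISM1/ISM2 from 3 to 1 without those arrays; with array weights 1 telomere gene passed in control. The regulator count in HTF/MultiBlast went from 1 to 0 with only the 2 groups compared or without the 3 high arrays. The 2-cell list had 2 calls in ISM1/ISM2 with probes detected on all 14 arrays only, in place of 4, and 1 in HTF/MultiBlast with array weights. Leaving out 1 array gave 3 to 5 and 0 to 1 for that list in ISM1/ISM2 and control. It gave 2 to 6 and 0 to 1 for the regulators in ISM1/ISM2 and HTF/MultiBlast, and 2 to 4, 0 to 1 and 0 to 1 for telomere genes in ISM1/ISM2, HTF/MultiBlast and KSOM(aa). The members were not detected on all 14 arrays, so that filter gave them no value. The replicate block changed no other call of the members. The causes of these changes were not tested. Bounds with 1 array left out were also chosen after seeing the data. The rule set here for a deviating array asks for at least 4 arrays in a group, which no group had, so it was not applied.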
